A study of Mus musculus with 14 samples.

Results

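The genes described here are 47 genes of the DNA replication machinery and of the nucleotide supply that feeds it, out of 50686 genes counted in mouse haematopoietic progenitor lines. They were chosen by symbol and cover 9 steps: 2 S-phase cyclins, 5 origin licensing genes, 12 helicase genes, 8 polymerase genes, 7 clamp and clamp loading genes, 2 genes of flap removal and ligation, 3 genes of single-strand binding and the fork checkpoint, 3 of histone supply and chromatin assembly, and 5 of nucleotide synthesis. All 47 passed the filter on low counts, which left 14512 genes for testing.

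RNA was sequenced from 14 cultures of HPC-LSK lines, mouse progenitor lines named after the marrow fraction that lacks lineage markers and carries Sca-1 and Kit, on the C57BL/6N background. The groups were 4 libraries of Cdk6 knockout (KO) lines transformed with the BCR-ABL p210 oncogene (KO p210), 3 of Cdk6 wild-type (WT) lines with p210 (WT p210), 3 of untransformed KO lines and 4 of untransformed WT lines. Untransformed lines were kept in medium with 2% SCF and with IL-6 at 12.5 ng/ml. The p210 lines are listed with neither cytokine, so the oncogene and the medium changed together and cannot be told apart. The p210 sample descriptions also carry the letters SCF, whose meaning is not given. BCR-ABL p210 is the fusion tyrosine kinase of chronic myeloid leukaemia. Cdk6 is a cyclin D-dependent kinase of the G1 phase. The labels do not say whether replicates were separate derivations or cultures, and p-values therefore measure the spread between these samples, which may be technical.

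Replication starts in G1, when the origin recognition complex, Cdc6 and Cdt1 load the Mcm2 to Mcm7 ring onto DNA, and geminin later holds Cdt1 back. In S phase Cdc45 and the GINS complex turn the ring into an active helicase, polymerase alpha with primase lays primers, polymerases epsilon and delta extend them with the help of the PCNA clamp, and Fen1 and Lig1 finish the lagging strand. G1 cyclin-dependent kinases phosphorylate the retinoblastoma protein, which releases the E2F transcription factors, and many genes of this set are known E2F targets. In bulk RNA, fewer cells in S phase and less replication RNA per cell cannot be told apart.

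Total counts ran from 20270348 to 50303271 per library, and the members had between 137 counts (Dscc1, WT p210 replicate 3) and 39482 counts (Mcm6, WT untransformed replicate 2). Cdk6 itself, in CPM (reads counted for a gene per size-scaled library total), was at 326, 578, 245 and 163 in the KO p210 libraries, 576, 606 and 597 in the WT p210 libraries, 271, 258 and 236 in the untransformed KO libraries, and 970, 999, 1212.7 and 1305.2 in the untransformed WT libraries. The library labelled KO p210 replicate 2, at 578 CPM, thus lay within the range of the WT p210 libraries, and calls of members that rest on it are given with and without it. The difference between KO p210 and WT p210 lines in Cdk6 did not pass the test (log2 fold change -0.86 ± 0.31 (SE), adjusted p = 0.147), and Cdk6 was lower in untransformed KO than in untransformed WT lines (-2.14 ± 0.34, adjusted p = 0.00573). Of the defining LSK markers, Kit stood at 14.9 to 42.7 CPM in KO p210 and 35.5 to 59.1 CPM in WT p210 lines, against 247 to 276 CPM in untransformed KO and 360 to 471 CPM in untransformed WT lines. Flt3 was at or below 2.45 CPM in every p210 library. It was at 7 to 7.78 CPM in untransformed KO and 3.19 to 13.7 CPM in untransformed WT lines. Ly6a, which encodes Sca-1, was at 0.553 to 29.1 CPM in KO p210, 10.3 to 13.9 CPM in WT p210, 26.4 to 42.2 CPM in untransformed KO and 13.6 to 112 CPM in untransformed WT lines. Cd34 was at 368 to 990 CPM in KO p210, 512 to 687 CPM in WT p210, 781 to 1191.5 CPM in untransformed KO and 696 to 1366.5 CPM in untransformed WT lines, and Ptprc, the pan-leukocyte marker CD45, at 454 to 646, 331 to 524, 502 to 623 and 259 to 364 CPM in the same 4 groups. The summed level of 11 neutrophil and monocyte markers was 6793 to 21127.4 CPM in KO p210, 1862.6 to 6839.2 CPM in WT p210, 22647.5 to 31549 CPM in untransformed KO and 291 to 10077.3 CPM in untransformed WT lines, with Ly6g at 0 in every library of the last 3 groups. The 8 erythroid markers summed to at most 7.16 CPM in KO p210, 14.9 to 101 CPM in WT p210, 21.2 to 57.6 CPM in untransformed KO and 177 to 390 CPM in untransformed WT lines. The part of these differences in cell character in the results below was not tested.

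The promoters of the members are shown as a description. The genes were chosen by symbol and not by promoter letters. Many are known E2F targets, however, so their share of E2F letters is not independent of that choice. RefSeq windows of 300 bases (GRCm38.p6, from 250 before to 50 after a start) were found for 37 of the 47 genes. The letters searched were TTTCCCGC, TTTGGCGC, TTTCGCGC and TTTGCCGC on both strands, and matches may overlap each other. At least 1 such match lay in the windows of 14 of the 37 genes (37.8%), against 2.6% of 27025 genes with a window. Of the 2 lists described at the end, it was 8 of 36 other replication and nucleotide genes (22.2%) and 1 of 11 mitosis genes (9.09%). The 200 bases before the RefSeq start of 6 genes are printed 5′ to 3′ on the gene's strand with the matches in capitals: Orc1 at chr4:108579254-108579453 (plus strand), Mcm5 at chr8:75109309-75109508 (plus), Mcm6 at chr1:128359706-128359905 (minus), Pola1 at chrX:93632156-93632355 (minus), Rfc3 at chr5:151651209-151651408 (minus) and Pcna at chr2:132253181-132253380 (minus).
Orc1: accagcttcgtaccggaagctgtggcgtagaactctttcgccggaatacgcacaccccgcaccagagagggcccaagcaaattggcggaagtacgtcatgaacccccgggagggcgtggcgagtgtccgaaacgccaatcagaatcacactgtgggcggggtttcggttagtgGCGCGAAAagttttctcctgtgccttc
Mcm5: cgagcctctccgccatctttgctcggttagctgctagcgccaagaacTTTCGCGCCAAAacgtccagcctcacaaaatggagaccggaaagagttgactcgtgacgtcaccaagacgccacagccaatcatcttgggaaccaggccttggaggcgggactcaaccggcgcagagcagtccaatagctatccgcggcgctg
Mcm6: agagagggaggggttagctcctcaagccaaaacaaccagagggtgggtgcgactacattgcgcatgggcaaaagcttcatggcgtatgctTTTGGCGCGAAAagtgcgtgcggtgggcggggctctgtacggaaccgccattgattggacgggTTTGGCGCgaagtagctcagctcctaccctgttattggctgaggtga
Pola1: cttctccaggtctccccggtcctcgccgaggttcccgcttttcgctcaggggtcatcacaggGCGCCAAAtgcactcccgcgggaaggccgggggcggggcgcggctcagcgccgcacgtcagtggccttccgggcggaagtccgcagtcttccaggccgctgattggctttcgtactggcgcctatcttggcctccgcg
Rfc3: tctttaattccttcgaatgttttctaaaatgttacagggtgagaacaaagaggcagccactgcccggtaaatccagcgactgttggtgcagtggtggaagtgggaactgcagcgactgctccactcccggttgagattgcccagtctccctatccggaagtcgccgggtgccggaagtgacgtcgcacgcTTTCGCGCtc
Pcna: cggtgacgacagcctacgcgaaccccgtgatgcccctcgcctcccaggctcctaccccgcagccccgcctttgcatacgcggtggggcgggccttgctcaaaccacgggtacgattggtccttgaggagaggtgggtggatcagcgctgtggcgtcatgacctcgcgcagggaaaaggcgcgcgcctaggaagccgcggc
In Mcm5 and in Mcm6 a pair of matches overlaps, and Mcm6 holds another match nearer to its start. Orc1 and Rfc3 hold theirs close to the start and Pola1 farther up. None of these letters is in the Pcna window, which says nothing about what binds there. Windows of Cdc6, Cdt1, Mcm3, Mcm7, Gins3, Pole2, Pold1, Lig1 and Clspn also held a match. CCAAT letters on either strand were in the windows of 62.2% of the members and 41.1% of all genes, and the letters TTTGAA, known as the CHR element of mitosis genes, in 13.5% of the members and 20.2% of all genes. In the other replication and nucleotide genes these were 41.7% and 22.2%, and in the mitosis genes 81.8% and 54.5%. A match is a run of letters and was not tested as a binding site.

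Replication RNA took up the largest share of the untransformed WT libraries and the smallest of the KO p210 libraries. The TPM (a library's transcript share, scaled by gene length) of all 47 genes summed to 3364.5, 3460.3, 3641.3 and 3071 in the KO p210 libraries, to 4814.8, 4459.6 and 3877.6 in the WT p210 libraries, to 4815.5, 4350.7 and 5380.3 in the untransformed KO libraries, and to 7285.8, 7563.4, 7179.1 and 7576.4 in the untransformed WT libraries. The means were 3384.3 ± 238 (SD, n = 4), 4384 ± 473 (n = 3), 4848.8 ± 516 (n = 3) and 7401.2 ± 200 (n = 4) in the same order of groups. KO p210 thus averaged 45.7%, WT p210 59.2% and untransformed KO 65.5% of the untransformed WT mean. WT p210 and untransformed KO libraries overlapped, while every KO p210 library lay below, and every untransformed WT library above, all libraries of the other groups. These sums are on the deposited TPM scale, without the scaling between libraries used in the tests. On the scaled CPM, the median log2 ratio of the 47 genes to the untransformed WT mean was -0.94 to -0.816 in KO p210 libraries. It was -0.821 to -0.506 in WT p210 libraries, so these 2 groups overlapped on that scale. Untransformed WT libraries, at -0.047 to 0.033, still lay above all others.

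**Figure D1:**
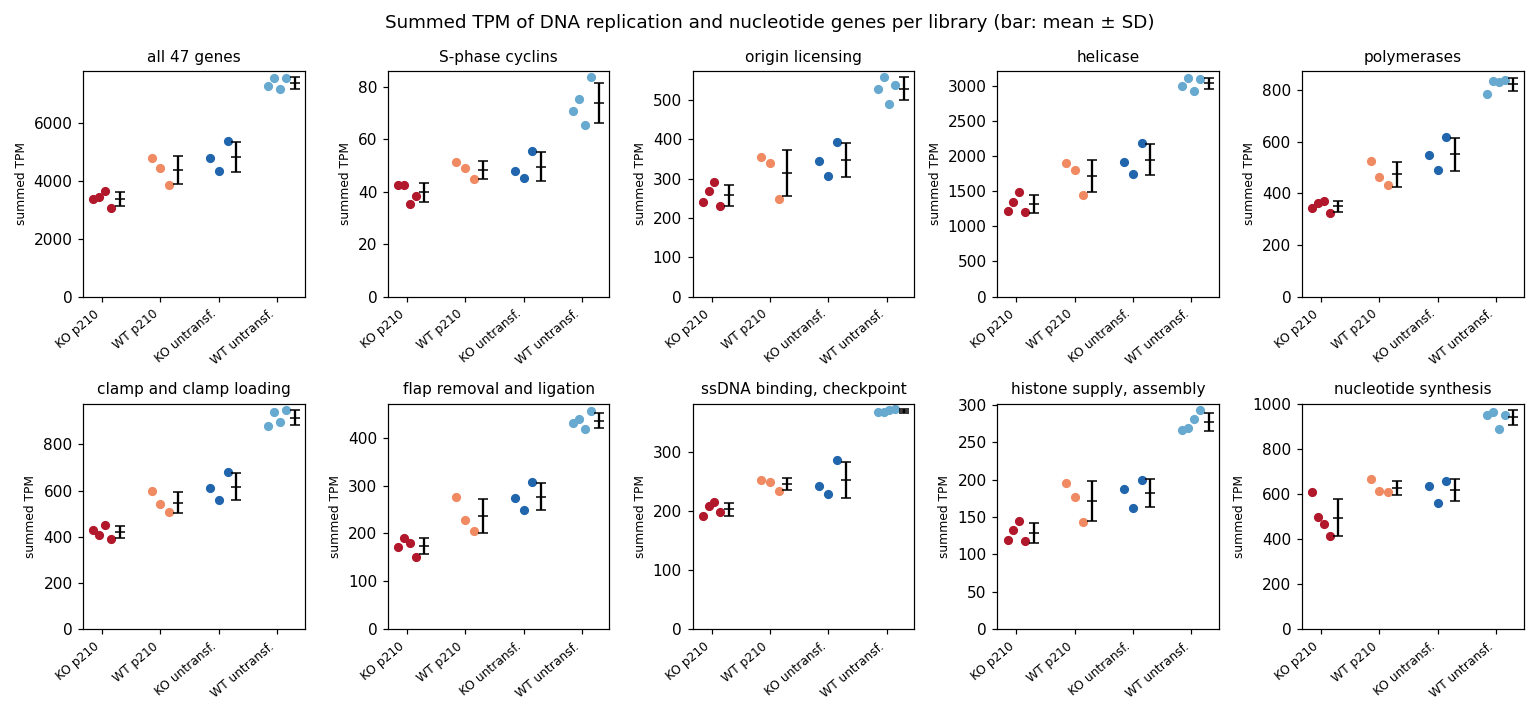
Summed TPM of all 47 genes and of each of the 9 steps (y axis) in each library (points), by group on the x axis, with mean ± SD beside the points. Untransformed WT libraries are highest in every panel, and in the panel of all genes the KO p210 libraries lie between 3071 and 3641.3 TPM, below every other library.

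As a share of the untransformed WT mean, KO p210 lines kept between 39.9% (flap removal and ligation) and 54.9% (single-strand binding and checkpoint) of a step's summed TPM, WT p210 lines between 54.4% (flap removal and ligation) and 66.9% (nucleotide synthesis), and untransformed KO lines between 63.5% (flap removal and ligation) and 68.4% (single-strand binding and checkpoint). The helicase genes were the most abundant step at 1315.7 ± 132 TPM in KO p210, 1714.6 ± 233 in WT p210, 1949.4 ± 219 in untransformed KO and 3033.1 ± 82.7 in untransformed WT lines (SD, n = 4, 3, 3 and 4). In a principal component analysis of the 47 log2 CPM values, the first component held 88.9% of the variance. It placed the KO p210 libraries at 2.60 to 3.19, WT p210 at 0.43 to 2.01, untransformed KO at -1.16 to 0.57 and untransformed WT at -3.73 to -3.12.

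Group means of single genes followed the same order. Untransformed WT lines had the highest mean CPM for 46 of the 47 genes and KO p210 lines the lowest for 42, and both held for 42 genes, where 18.6% of all tested genes showed that pattern. Every KO p210 library was below every untransformed WT library for 44 genes, against 24.2% of all tested genes. Untransformed KO means exceeded WT p210 means for 40 genes. The genes outside the pattern were Ccne1, Gmnn, Mcm10, Cdc45 and Dut.

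**Figure D2:**
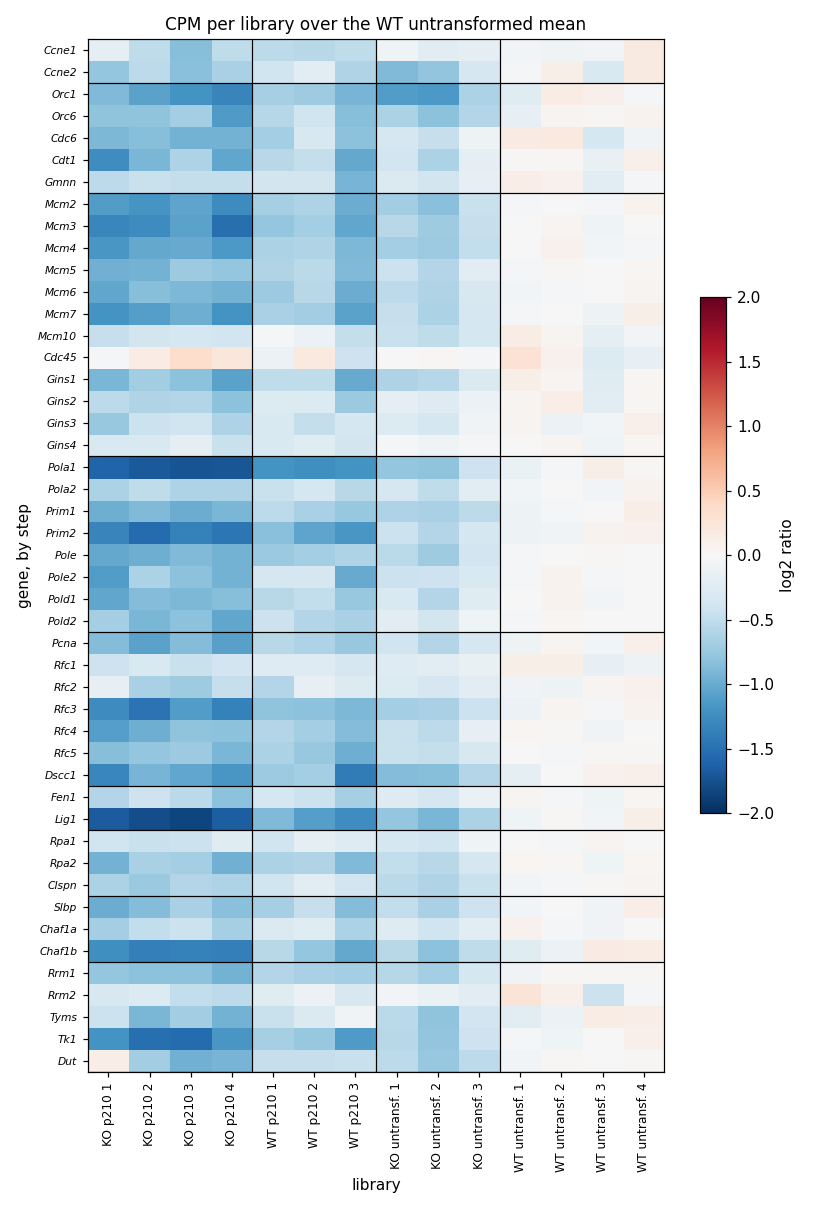
Log2 ratio of each gene's CPM to its mean over the untransformed WT libraries (colour), with genes in rows by step and the 14 libraries in columns by group. Lig1, Pola1, Prim2, Chaf1b and Tk1 are among the darkest blue in the KO p210 columns, while Cdc45 lacks the blue of its neighbours and Dut is above 0 in KO p210 replicate 1.

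In untransformed lines, KO cells had less RNA for genes of every replication step. The test called 30 of the 47 genes lower in KO and 0 higher, where 6.5% of all tested genes were called lower and 8.73% higher (15.2% in either direction). All 47 fold changes were negative, with a median log2 of -0.45, against -0.02 over all genes, and for 39 genes every KO library lay below every WT library (18.9% of all genes). Sample names carry a first and a second number code of unstated meaning. Among libraries of the first code the median was -0.53, and among those of the second, 1 KO against 2 WT libraries, it was -0.34. Without untransformed KO replicate 2 the count was 10: Orc1, Mcm2, Mcm4, Pola1, Prim1, Pole, Rfc3, Lig1, Clspn and Rrm1 remained. Over all genes that fit called 181 of 15045, where the main fit called 2211 of 14512. Without untransformed KO replicate 1 the count was 21, with 691 of 15050 genes called in all. The calls of Mcm5 and Rfc4 ended when any of 3 of the 14 libraries was left out, that of Tyms with any of 4 and that of Gins1 with any of 6.

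In p210 lines fewer genes passed between genotypes, and these too were lower in KO. The test called 12 genes lower in KO p210 than in WT p210 lines and 0 higher, where 3.56% of all tested genes were called lower and 0.882% higher (4.44% in either direction). These were Mcm2, Mcm3, Mcm4, Pola1, Prim1, Prim2, Pole, Rfc3, Lig1, Clspn, Chaf1b and Tk1, all of which were also called in untransformed lines. Fold changes were negative for 44 genes with a median log2 of -0.22, against 0.00 over all genes, and 17 genes had every KO library below every WT library (7.7% of all genes). Within the first code the median was -0.33 and within the second -0.13. Without the library labelled KO p210 replicate 2 the median was -0.27 and 3 genes were called, Pola1, Rfc3 and Lig1. Over all genes that fit called 305 of 14526, against 645 of 14512 in the main fit. The count was also 3 without WT p210 replicate 2 (736 of 14887 genes in all) and 2 without WT p210 replicate 1 (285 of 14854). It was 5 on leaving out KO p210 replicate 4 (551 of 14504) or untransformed KO replicate 1 (453 of 15050). Lig1 was the only member called whichever library was left out, and Pola1 and Rfc3 lost the call only without WT p210 replicate 1. A fit of these 2 groups alone called 0 members and 5 of 13390 genes in all. There 20 members had an unadjusted p below 0.05, and the share of all genes at that p was not counted.

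**Figure D3:**
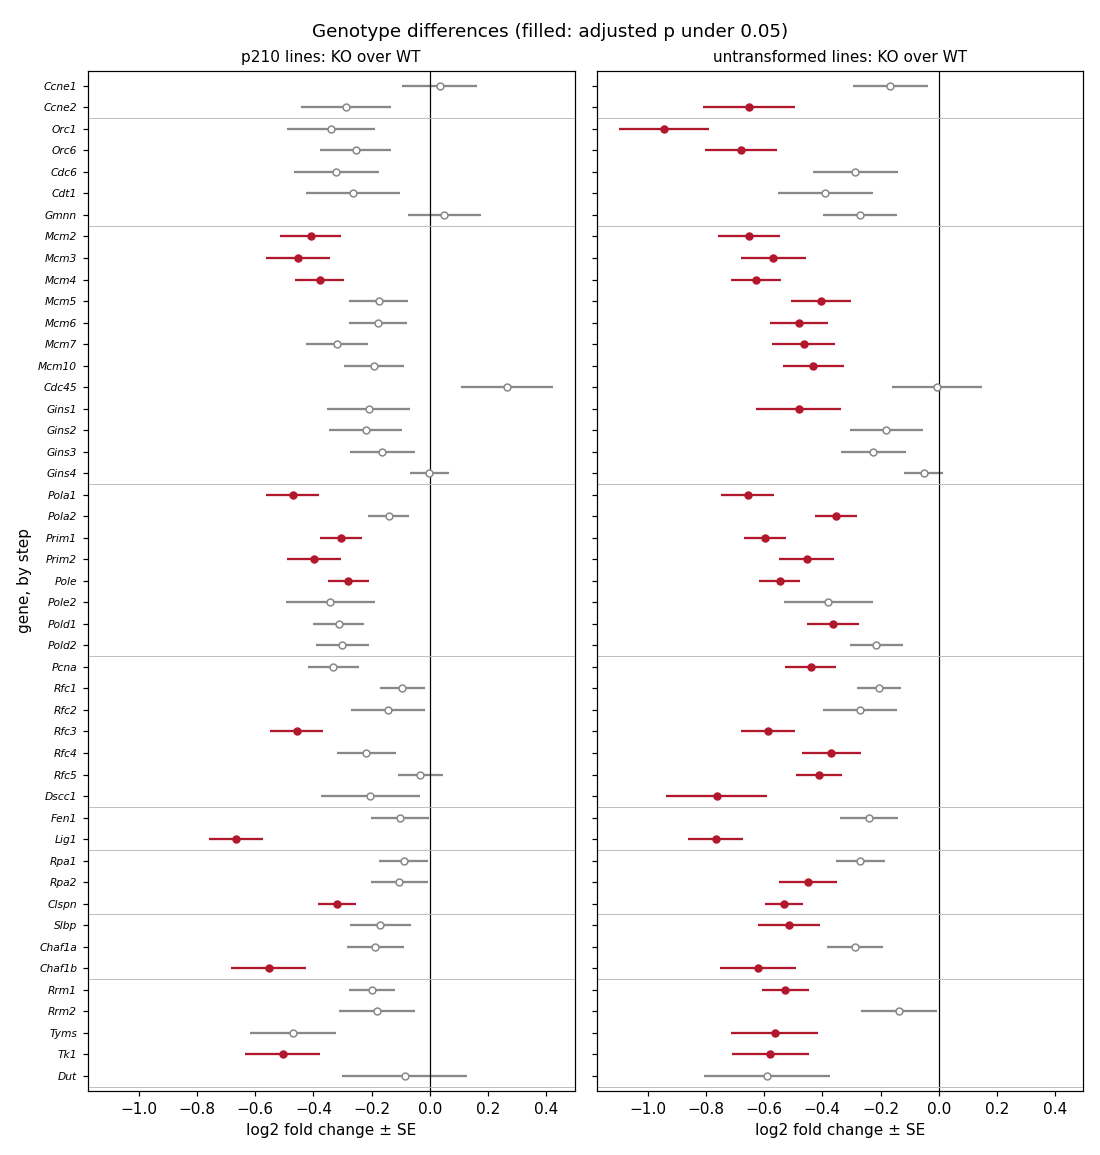
Log2 fold change ± SE (x axis) of KO over WT for each of the 47 genes (y axis, by step), in p210 lines on the left and untransformed lines on the right. Filled points passed an adjusted p of 0.05: 12 on the left and 30 on the right, all below 0.

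With p210, most of the replication genes were lower in both genotypes. In KO lines 31 of the 47 genes were called lower in p210 than in untransformed cells and 0 higher, where 18% of all tested genes were called lower and 19.2% higher (37.2% in either direction). There 44 fold changes were negative with a median log2 of -0.35, against -0.01 over all genes, and 34 genes had every p210 library below every untransformed library (23.5% of all genes). In WT lines 40 genes were called lower and 0 higher, where 17.6% of all tested genes were called lower and 21.9% higher (39.5% in either direction). All 47 fold changes were negative there with a median of -0.64, against 0.02 over all genes, and 41 genes did not overlap between the states (21.6% of all genes). The 31 genes called in KO lines were all among the 40 called in WT lines, and the other 9 were Ccne1, Orc1, Orc6, Gmnn, Gins1, Rfc1, Dscc1, Rpa1 and Clspn. Median changes within the first and second code were -0.30 and -0.53 in KO lines and -0.54 and -0.84 in WT lines. In the second code each comparison had a group of a single library, so only the medians are given. Without the library labelled KO p210 replicate 2 the KO count was again 31, with a median of -0.41. Of these, 30 were shared with the main fit, and Slbp was lost and Gins1 gained. Markers of other blood cells also differed between the states. The 5 mast cell and basophil markers summed to 7323.6 to 10982.7 CPM in KO p210 and 2796.9 to 3082.9 CPM in untransformed KO lines, and to 4319 to 14132 CPM in WT p210 and 1305.6 to 4230.9 CPM in untransformed WT lines, with 3 of 5 called higher with p210 in each genotype. The 6 megakaryocyte markers summed to 1229.2 to 1833.2 CPM in KO p210 and 982 to 1606 CPM in untransformed KO lines, and to 1536.9 to 2673 CPM in WT p210 and 2300.2 to 5966.7 CPM in untransformed WT lines, with 3 of 6 called lower in KO and 5 of 6 in WT lines. No marker of either list was at 0 in a whole group, and their part in the result was not tested.

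**Figure D4:**
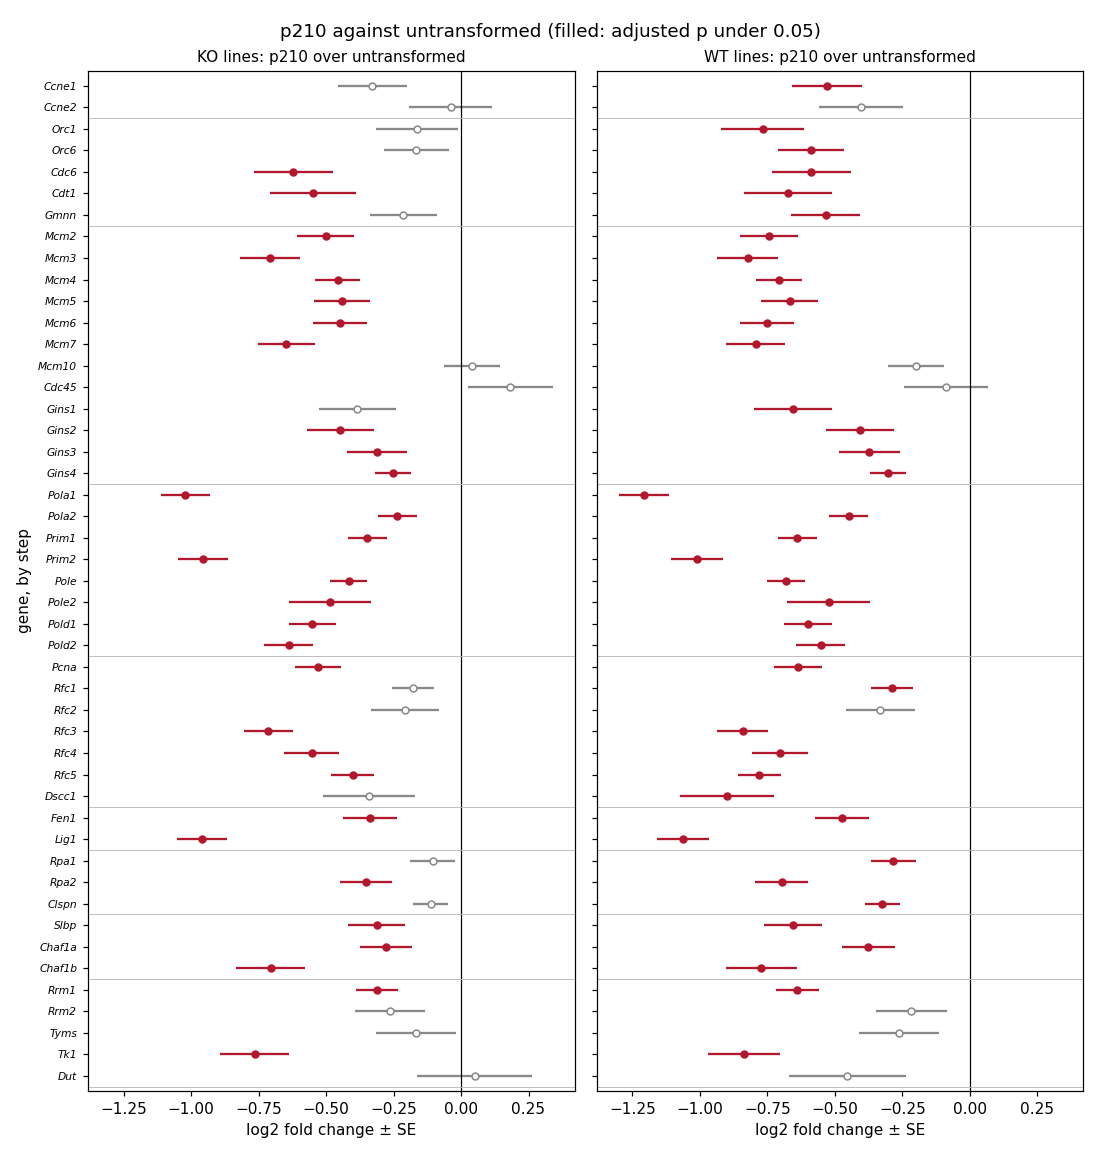
Log2 fold change ± SE (x axis) of p210 over untransformed cells for each of the 47 genes (y axis, by step), in KO lines on the left and WT lines on the right. Filled points passed an adjusted p of 0.05: 31 on the left and 40 on the right, with Pola1, Prim2 and Lig1 farthest below 0 in both panels.

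By the code and letter in the sample names, 6 lines were sequenced in both states, so the change can also be read line by line. In KO lines the p210 library had less RNA than its untransformed counterpart for 42 of 47 genes in line A of the first code (median log2 ratio -0.42), 41 in line B of the first code (-0.24) and 46 in line B of the second (-0.60). In that line B of the first code the p210 library is the library labelled KO p210 replicate 2, and its median was the nearest to 0 of the 6. In WT lines the counts were 47 in line A (-0.50) and 46 in line B (-0.55) of the first code, and 46 in line A of the second (-0.73). Over all tested genes, 47.7% to 51.7% were lower in the p210 library of these pairs. Pola1 had the lowest ratio of all members in 3 lines, Prim2 in 2 and Dscc1 in 1, where it had 137 counts in the p210 library.

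**Figure D5:**
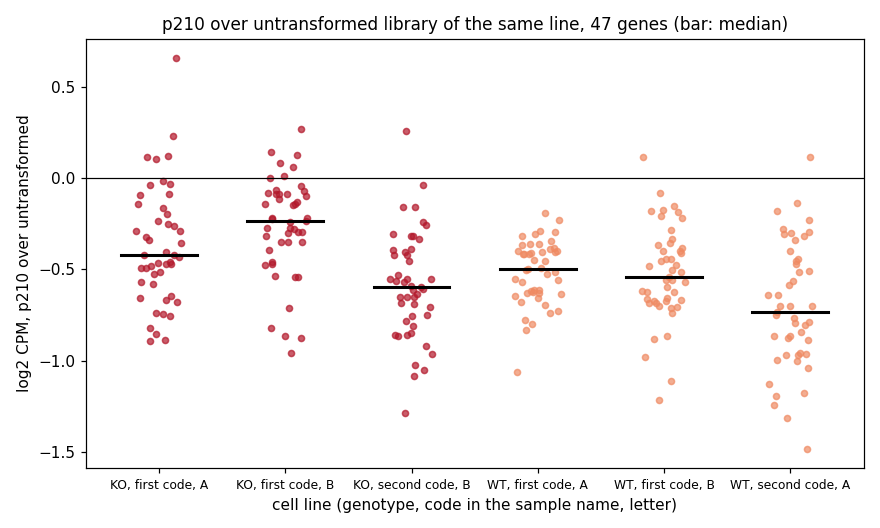
Log2 ratio of CPM in the p210 library over the untransformed library of the same line (y axis) for each of the 47 genes (points), by line (x axis), with the median as a bar. Medians lie between -0.24 and -0.42 in the KO lines of the first code, at -0.60 in the KO line of the second and between -0.73 and -0.50 in the WT lines.

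The interaction asks whether the KO difference changed with transformation. No member passed the edgeR test (0 of 47, with 0.0345% of all genes called), limma-voom called 0 and DESeq2 called 1, Rfc5. In edgeR 10 members had an unadjusted p below 0.05, and the share of all tested genes at that p was not counted. Of the 47 interaction estimates, 43 were above 0, with a median log2 of 0.18, against -0.03 over all genes. A positive value here means that the KO-minus-WT difference was less negative in p210 than in untransformed lines. So the genes called in untransformed lines and not in p210 lines are not shown to differ between the states. The largest estimates with an unadjusted p below 0.05 were those of Orc1 (0.60 ± 0.22, adjusted p = 0.273) and Dscc1 (0.56 ± 0.24, adjusted p = 0.336).

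Among the S-phase cyclins, which activate Cdk2, Ccne2 had 21.5, 25.5, 20.6 and 23.3 CPM in KO p210, 27.8, 31.3 and 24.1 CPM in WT p210, 19.8, 21.1 and 29 CPM in untransformed KO and 35.8, 39.6, 29.6 and 41.6 CPM in untransformed WT lines. In untransformed cells every KO library lay below every WT library, while the p210 groups overlapped. Ccne2 fell in untransformed KO lines (-0.65 ± 0.16, adjusted p = 0.0201). Ccne1 had 22.2, 17.6, 14 and 17.6 CPM in KO p210, 17.5, 17.1 and 17.6 CPM in WT p210, 23.7, 21.4 and 22.2 CPM in untransformed KO and 24.1, 23.8, 24.2 and 28.5 CPM in untransformed WT lines. It fell with p210 in WT lines (-0.53 ± 0.13, adjusted p = 0.00735), while its KO differences were 0.03 ± 0.13 (adjusted p = 0.92) in p210 and -0.17 ± 0.13 (adjusted p = 0.4) in untransformed lines. With p210 in WT lines Ccne2 gave -0.40, which was not called in the main fit. It was called there with RLE, upper quartile and library size scaling and with DESeq2. Its genotype call ended without untransformed KO replicate 1 or replicate 2. In the main fit Ccne2 thus passed by genotype and Ccne1 by transformation, and the difference between the cyclins was not tested.

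At origin licensing, Orc1, the largest subunit of the origin recognition complex (chr4:108579423-108614833, GRCm38), had the largest genotype difference of all members in untransformed lines. Its level was 15.5, 13.7, 12.6 and 11.5 CPM in KO p210, 18.1, 17.5 and 15 CPM in WT p210, 13.2, 13 and 18.5 CPM in untransformed KO and 24.2, 31.8, 30.8 and 28.1 CPM in untransformed WT lines. Only the untransformed WT libraries stood apart, and the other 3 groups overlapped. Orc1 fell by 0.94 on the log2 scale in untransformed KO lines (SE 0.15, adjusted p = 0.00642) and by 0.77 with p210 in WT lines (adjusted p = 0.0023), against -0.16 ± 0.15 (adjusted p = 0.427) with p210 in KO lines. Orc6, another subunit of the complex, followed with -0.68 ± 0.12 (adjusted p = 0.00764) in untransformed KO lines and -0.59 ± 0.12 (adjusted p = 0.00278) with p210 in WT lines.

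Cdc6, a factor that loads the Mcm ring, had 29.2, 30.3, 28.5 and 28.4 CPM in KO p210, 34.3, 43.8 and 30.9 CPM in WT p210, 43.4, 39.8 and 51.1 CPM in untransformed KO and 61.3, 62.6, 42.8 and 51.9 CPM in untransformed WT lines. It fell with p210 in KO (-0.62 ± 0.14, adjusted p = 0.00592) and WT lines (-0.59 ± 0.15, adjusted p = 0.00819), and untransformed KO and WT libraries overlapped (-0.29 ± 0.15, adjusted p = 0.194). Cdt1, which brings the Mcm ring to the origin, likewise fell with p210 in KO (-0.55 ± 0.16, adjusted p = 0.0185) and WT lines (-0.67 ± 0.16, adjusted p = 0.00682). Between untransformed lines it gave -0.39 ± 0.16 (adjusted p = 0.12), with every KO library (86.6, 72.9 and 99.5 CPM) below every WT library (114, 114, 102 and 121 CPM). Gmnn, which encodes the Cdt1 inhibitor geminin, fell with p210 in WT lines (-0.53 ± 0.13, adjusted p = 0.00612). In KO lines it gave -0.21 ± 0.12 (adjusted p = 0.201), with 52.9 to 55.8 CPM in p210 and 59.3 to 68.4 CPM in untransformed cells. In genotype contrasts the licensing step had 0 of 5 genes called lower in p210 lines and 2 of 5 in untransformed lines. Of all tested genes, 3.56% and 6.5% were called lower there. With p210, 2 of 5 were called lower in KO and 5 of 5 in WT lines, against 18% and 17.6% of all tested genes.

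All 6 subunits of the Mcm ring fell in untransformed KO lines and with p210 in both genotypes, and 3 of them fell in KO p210 lines. Of all tested genes, 6.5% were called lower in untransformed KO and 3.56% in KO p210 lines. With p210, 18% were called lower in KO and 17.6% in WT lines. Per length, Mcm6 and Mcm3 were the most abundant of the 6 at 599 ± 20 and 584 ± 23.4 TPM in untransformed WT lines (SD, n = 4). Mcm4 (chr16:15623897-15637400) had 171, 189, 191 and 174 CPM in KO p210, 248, 253 and 206 CPM in WT p210, 240, 232 and 273 CPM in untransformed KO and 384, 406, 369 and 379 CPM in untransformed WT lines. Each KO group lay wholly below its WT group, and Mcm4 fell in KO in p210 (-0.38 ± 0.08, adjusted p = 0.0277) and untransformed lines (-0.63 ± 0.09, adjusted p = 0.00374). Mcm3 had 239, 248, 281 and 208 CPM in KO p210, 347, 369 and 286 CPM in WT p210, 404, 359 and 431 CPM in untransformed KO and 595, 616, 556 and 595 CPM in untransformed WT lines. Its fall with p210 was -0.71 ± 0.11 (adjusted p = 0.000554) in KO and -0.82 ± 0.11 (adjusted p = 0.000218) in WT lines. Mcm5, Mcm6 and Mcm7 were called in untransformed KO lines at -0.40 to -0.48, and in p210 lines gave -0.18 ± 0.10, -0.18 ± 0.10 and -0.32 ± 0.11 with overlapping libraries (adjusted p = 0.368, 0.347 and 0.115). Mcm2, Mcm3 and Mcm4 were the subunits called in KO p210 lines, and each lost that call without the library labelled KO p210 replicate 2.

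Cdc45, which joins the ring to form the active helicase, had 69.5, 79.4, 91.3 and 84 CPM in KO p210, 66.5, 82.3 and 53.7 CPM in WT p210, 71.1, 72.8 and 70.4 CPM in untransformed KO and 88.1, 76.1, 59.1 and 63.7 CPM in untransformed WT lines. All groups overlapped, it passed in no contrast, and its estimates ran from -0.09 to 0.26. The GINS subunits Gins2, Gins3 and Gins4 fell with p210 in both genotypes and passed in neither genotype contrast. The Gins3 call in KO lines (adjusted p = 0.0438) ended when any of 10 of the 14 libraries was left out. Gins4 was at 40.5 to 48.2 CPM in KO p210 and 42.4 to 46.5 CPM in WT p210, against 51.7 to 53.7 CPM in untransformed KO and 51.6 to 56.7 CPM in untransformed WT lines, with KO differences of 0.00 ± 0.07 (adjusted p = 0.994) in p210 and -0.05 ± 0.07 (adjusted p = 0.626) in untransformed lines. Gins1 fell in untransformed KO lines (-0.48 ± 0.14, adjusted p = 0.044) and with p210 in WT lines (-0.66 ± 0.14, adjusted p = 0.0041). Mcm10, a factor of helicase activation, fell in untransformed KO lines (-0.43 ± 0.10, adjusted p = 0.0209) and had p210 differences of 0.04 ± 0.10 (adjusted p = 0.798) in KO and -0.20 ± 0.10 (adjusted p = 0.147) in WT lines.

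Of the polymerase genes, 4 of 8 were called lower in KO p210 lines, 6 of 8 in untransformed KO lines, and 8 of 8 with p210 in either genotype. The shares of all tested genes called lower were 3.56% in KO p210 and 6.5% in untransformed KO lines. With p210 they were 18% in KO and 17.6% in WT lines. Without the library labelled KO p210 replicate 2, Prim1, Prim2 and Pole lost the KO p210 call and Pola1 kept it. Pola1, the catalytic subunit of polymerase alpha (chrX:93304767-93632155), had 86.5, 81.6, 79.4 and 80.3 CPM in KO p210, 114, 112 and 115 CPM in WT p210, 153, 150 and 196 CPM in untransformed KO and 239, 259, 285 and 265 CPM in untransformed WT lines. The 4 groups did not overlap at all. Pola1 fell by 1.02 on the log2 scale with p210 in KO lines (SE 0.09, adjusted p = 2.03e-05) and by 1.21 in WT lines (SE 0.09, adjusted p = 7.28e-06), the largest p210 falls of any member in either genotype. KO differences were -0.47 ± 0.09 (adjusted p = 0.014) in p210 and -0.66 ± 0.09 (adjusted p = 0.00399) in untransformed lines.

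The primase subunits, which make the RNA primer, fell in all 4 contrasts. Both lost the call between KO p210 and WT p210 lines without the library labelled KO p210 replicate 2. Prim1, the catalytic subunit, had 45.6, 48.5, 45 and 47.7 CPM in KO p210, 62.7, 57.1 and 53.4 CPM in WT p210, 58.4, 57.2 and 62.8 CPM in untransformed KO and 83.5, 88, 89.7 and 98.4 CPM in untransformed WT lines. WT p210 and untransformed KO libraries overlapped, with KO p210 below and untransformed WT above both. Prim2, the large subunit, had 29.8, 25.6, 29.3 and 27.4 CPM in KO p210, 41.8, 36 and 33.1 CPM in WT p210, 55.4, 49.7 and 58.1 CPM in untransformed KO and 69.7, 71, 78.5 and 78.7 CPM in untransformed WT lines. Its groups did not overlap, and the p210 fall was -0.96 ± 0.09 (adjusted p = 3.55e-05) in KO and -1.01 ± 0.10 (adjusted p = 2.5e-05) in WT lines. Pole, the catalytic subunit of the leading-strand polymerase epsilon, fell in all 4 contrasts as well, from -0.28 ± 0.07 (KO against WT in p210 lines, adjusted p = 0.0415) to -0.68 ± 0.07 (p210 against untransformed in WT lines, adjusted p = 4.19e-05). Its call between genotypes in p210 lines was also lost without the library labelled KO p210 replicate 2. The accessory subunits Pole2 and Pold2 did not pass between genotypes, with -0.38 ± 0.15 and -0.21 ± 0.09 in untransformed lines (adjusted p = 0.11 and 0.123), and fell with p210 in both genotypes.

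Of the clamp and its loader, Rfc3, a small subunit of replication factor C (chr5:151642756-151651242), had 22.1, 19.1, 24.4 and 20.8 CPM in KO p210, 30.3, 30 and 28.6 CPM in WT p210, 33, 33.8 and 39.3 CPM in untransformed KO and 49.1, 55.3, 52.1 and 56 CPM in untransformed WT lines. Its 4 groups did not overlap, and it fell in KO in p210 (-0.46 ± 0.09, adjusted p = 0.0168) and untransformed lines (-0.58 ± 0.09, adjusted p = 0.00573). Rfc5, another small subunit, had 56, 58.8, 60.7 and 53.5 CPM in KO p210, 64.9, 59.6 and 51.2 CPM in WT p210, 74.2, 72.2 and 80.5 CPM in untransformed KO and 101, 97.7, 102 and 102 CPM in untransformed WT lines. The p210 groups overlapped (-0.03 ± 0.08, adjusted p = 0.865), while the untransformed KO libraries were all lower than WT (-0.41 ± 0.08, adjusted p = 0.00934). Its interaction estimate, 0.38 ± 0.11, had an adjusted p of 0.22 in edgeR and was the call that DESeq2 made. Rfc1, the large subunit, and Rfc2 gave -0.20 ± 0.08 and -0.27 ± 0.13 in untransformed KO lines (adjusted p = 0.0893 and 0.166).

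Pcna, the sliding clamp (chr2:132249162-132253314), had 150, 131, 151 and 129 CPM in KO p210, 187, 179 and 162 CPM in WT p210, 208, 182 and 217 CPM in untransformed KO and 256, 284, 264 and 294 CPM in untransformed WT lines. KO libraries lay below WT libraries in both states, with -0.33 ± 0.09 (adjusted p = 0.0519) in p210 and -0.44 ± 0.09 (adjusted p = 0.0108) in untransformed lines, the p210 value just short of the threshold. Pcna has processed pseudogenes in the mouse, and reads that fit several copies could have been lost or split, so its level is uncertain. Dscc1, part of the alternative clamp loader with Ctf18, had 7.47 to 9.62 CPM in KO p210 and 6.96 to 11.5 CPM in WT p210, against 10.1 to 12.2 CPM in untransformed KO and 16 to 19.7 CPM in untransformed WT lines. It was the least abundant member and fell in untransformed KO lines (-0.76 ± 0.17, adjusted p = 0.016) and with p210 in WT lines (-0.90 ± 0.17, adjusted p = 0.00177).

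Lig1, the ligase that seals Okazaki fragments (chr7:13277283-13311433), had the largest genotype difference of all members in p210 lines. Its level was 77.9, 71.8, 69.1 and 78.3 CPM in KO p210, 134, 115 and 104 CPM in WT p210, 144, 131 and 159 CPM in untransformed KO and 232, 250, 237 and 266 CPM in untransformed WT lines. KO p210 libraries lay below, and untransformed WT libraries above, every other library. Lig1 fell in KO by 0.67 on the log2 scale in p210 (SE 0.09, adjusted p = 0.00323) and by 0.77 in untransformed lines (SE 0.10, adjusted p = 0.00271), and with p210 by 0.96 in KO (adjusted p = 3.55e-05) and 1.06 in WT lines (adjusted p = 1.84e-05). At 71.8 CPM, the library labelled KO p210 replicate 2 was within the range of the other KO p210 libraries. Fen1, the flap nuclease that works just before Lig1, differed less: -0.10 ± 0.10 (adjusted p = 0.621) in KO p210 and -0.24 ± 0.10 (adjusted p = 0.12) in untransformed KO lines, with p210 falls of -0.34 ± 0.10 (adjusted p = 0.0189) in KO and -0.47 ± 0.10 (adjusted p = 0.00315) in WT lines.

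At the fork checkpoint, Clspn, which encodes the Chk1 mediator claspin, had 58.6, 54, 60.2 and 59.3 CPM in KO p210, 68.7, 78.7 and 69.9 CPM in WT p210, 62.3, 59.6 and 66.3 CPM in untransformed KO and 87.4, 89.4, 92.1 and 93.7 CPM in untransformed WT lines. KO libraries were below WT libraries in both states, and the KO groups of both states overlapped. Clspn fell in KO in p210 (-0.32 ± 0.07, adjusted p = 0.0174) and untransformed lines (-0.53 ± 0.07, adjusted p = 0.00271), with the call in p210 lines lost on leaving out WT p210 replicate 2 or the library labelled KO p210 replicate 2. Rpa2, a subunit of the single-strand binding protein RPA, had 61.8, 76.2, 74.1 and 61.1 CPM in KO p210, 77.2, 78.5 and 64.7 CPM in WT p210, 85.1, 81.6 and 94.8 CPM in untransformed KO and 122, 121, 112 and 122 CPM in untransformed WT lines. It fell with p210 in KO (-0.35 ± 0.10, adjusted p = 0.0142) and WT lines (-0.70 ± 0.10, adjusted p = 0.000266). Rpa1, the large subunit, gave -0.27 ± 0.08 (adjusted p = 0.0506) in untransformed KO lines and -0.28 ± 0.08 (adjusted p = 0.019) with p210 in WT lines, where the second passed.

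Genes that package the new DNA followed. Chaf1b, a subunit of chromatin assembly factor 1, had 47, 42.6, 42.9 and 42.5 CPM in KO p210, 74.5, 64.3 and 53.9 CPM in WT p210, 74.9, 61.9 and 77.2 CPM in untransformed KO and 92.2, 101, 123 and 122 CPM in untransformed WT lines. It fell in KO in p210 (-0.55 ± 0.13, adjusted p = 0.032) and untransformed lines (-0.62 ± 0.13, adjusted p = 0.0122). The call in p210 lines was lost without the library labelled KO p210 replicate 2. Slbp, whose product binds the stem-loop of replication-dependent histone mRNAs, had 52, 56.6, 66.1 and 58.1 CPM in KO p210, 65, 74.9 and 56.6 CPM in WT p210, 73.2, 65.9 and 77.9 CPM in untransformed KO and 99.3, 103, 98.1 and 113 CPM in untransformed WT lines. Slbp fell in untransformed KO lines (-0.51 ± 0.11, adjusted p = 0.0119) and with p210 in WT lines (-0.66 ± 0.11, adjusted p = 0.00061), and its p210 groups overlapped between genotypes. It was also called lower with p210 in KO lines. That call ended when any of 5 of the 14 libraries was left out, the library labelled KO p210 replicate 2 among them.

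Among the genes of nucleotide synthesis, Rrm1, the large subunit of ribonucleotide reductase (chr7:102441695-102469771), had 407, 390, 393 and 359 CPM in KO p210, 461, 441 and 431 CPM in WT p210, 467, 432 and 543 CPM in untransformed KO and 657, 704, 701 and 706 CPM in untransformed WT lines. It fell in untransformed KO lines (-0.53 ± 0.08, adjusted p = 0.00519) and with p210 in KO (-0.31 ± 0.08, adjusted p = 0.00888) and WT lines (-0.64 ± 0.08, adjusted p = 0.000126). Its partner Rrm2, the small subunit that limits the enzyme in S phase, had 161, 166, 144 and 140 CPM in KO p210, 171, 186 and 162 CPM in WT p210, 193, 184 and 173 CPM in untransformed KO and 241, 217, 150 and 198 CPM in untransformed WT lines. The untransformed WT libraries alone spanned nearly the whole range, and Rrm2 passed in no contrast, with estimates from -0.26 to -0.14.

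Tk1, the thymidine kinase of S phase, had 37.3, 30.3, 29.6 and 38.1 CPM in KO p210, 54.2, 50.5 and 39.3 CPM in WT p210, 58.3, 49.7 and 64.4 CPM in untransformed KO and 84.7, 80.5, 86.1 and 91.8 CPM in untransformed WT lines. It fell in all 4 contrasts, narrowly in KO p210 (-0.51 ± 0.13, adjusted p = 0.0479). That call ended when any of 10 of the 14 libraries was left out, the library labelled KO p210 replicate 2 among them. Tyms, thymidylate synthase, had 87.1, 62.4, 73.1 and 61.1 CPM in KO p210, 86.8, 96 and 112 CPM in WT p210, 81, 67.6 and 90.3 CPM in untransformed KO and 102, 109, 131 and 129 CPM in untransformed WT lines. It fell in untransformed KO lines (-0.56 ± 0.15, adjusted p = 0.029) and not by the test with p210 (-0.26 ± 0.15, adjusted p = 0.181, in WT lines), and its level is uncertain because a mouse pseudogene can share its reads. Dut, the dUTPase, had 218, 123, 102 and 104 CPM in KO p210, 144, 144 and 146 CPM in WT p210, 139, 118 and 139 CPM in untransformed KO and 192, 202, 199 and 202 CPM in untransformed WT lines. KO p210 replicate 1 was the highest of all 14 libraries while the other 3 of its group lay below every WT library, and Dut passed in no contrast.

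The 4 contrasts share libraries with each other. In all, 11 genes were called lower in all 4, namely Mcm2, Mcm3, Mcm4, Pola1, Prim1, Prim2, Pole, Rfc3, Lig1, Chaf1b and Tk1, as were 0.434% of all tested genes. Without the library labelled KO p210 replicate 2, 3 of these 11 were called in all 4, Pola1, Rfc3 and Lig1. Another 4 members passed in none, Cdc45, Rfc2, Rrm2 and Dut, as did 43.4% of all tested genes. Promoter letters were set beside these calls as a description. E2F letters were in the windows of 10 of 24 genes called in untransformed KO lines and 4 of 13 not called, in 5 of 9 called in KO p210 lines and 9 of 28 not called, and in 14 of 32 called with p210 in WT lines and 0 of 5 not called. The 5 of 9 include calls lost without the library labelled KO p210 replicate 2, which left Pola1, Rfc3 and Lig1 called.

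A list of 41 other genes of replication and nucleotide supply, which holds further subunits and factors around the fork, was read in the same way. In p210 lines 1 of the 41 passed between genotypes and was higher in KO, where 3.56% of all tested genes were lower and 0.882% higher. In untransformed lines 17 were lower and 3 higher (6.5% and 8.73% of all tested genes). With p210, 13 were lower and 5 higher in KO lines (18% and 19.2% of all tested genes). In WT lines 20 were lower and 4 higher (17.6% and 21.9%). Rises with p210 thus took a smaller share of this list than of all tested genes. Pold4, the smallest polymerase delta subunit, rose in KO in both (0.43 ± 0.09, adjusted p = 0.0212, in p210 and 0.59 ± 0.09, adjusted p = 0.00519, in untransformed lines). The other genes higher in untransformed KO lines were Dguok, the mitochondrial deoxyguanosine kinase (0.41 ± 0.09, adjusted p = 0.0136), and Samhd1, which degrades deoxynucleotides (0.79 ± 0.19, adjusted p = 0.02). With p210, Rrm2b, the p53-inducible reductase subunit, rose in KO (0.60 ± 0.14, adjusted p = 0.00543) and WT lines (0.69 ± 0.14, adjusted p = 0.00197). Orc4 did so too (0.38 ± 0.09 in KO and 0.38 ± 0.08 in WT lines, adjusted p = 0.00461 and 0.00383).

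A list of 14 mitosis genes was read for the later cell cycle. Their summed level was 2313.2 to 3029.1 CPM in KO p210, 2461.6 to 2835.4 CPM in WT p210, 2488.8 to 2784.4 CPM in untransformed KO and 3397.3 to 4050 CPM in untransformed WT lines, so the first 3 groups overlapped. In untransformed lines 7 were lower in KO and 0 higher (6.5% and 8.73% of all tested genes), among them Top2a (-0.43 ± 0.07, adjusted p = 0.00656) and Ccna2 (-0.78 ± 0.14, adjusted p = 0.00773). No mitosis gene passed between KO p210 and WT p210 lines (4.44% of all tested genes did), at a median log2 of -0.02, where the replication genes had -0.22. With p210, 0 mitosis genes were lower and 3 higher in KO lines, near the 19.2% of all tested genes called higher (18% lower). These were Plk1 (0.53 ± 0.13, adjusted p = 0.009), Cenpe (0.45 ± 0.12, adjusted p = 0.0117) and Ccnb1 (0.41 ± 0.14, adjusted p = 0.0352). In WT lines 7 were lower and 0 higher (17.6% and 21.9% of all tested genes). The interaction passed for none of the 14 in edgeR, with 10 at an unadjusted p below 0.05 and a median of 0.41. How many of all tested genes reached that unadjusted p was not counted.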

How the data were processed

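The 14 libraries came from the SENSE mRNA-Seq kit, sequenced on single ends of 50 bp according to the labels' protocols. The submitters' processing notes name GRCm38 and, besides featureCounts, Trimmomatic and STAR, with versions not given in the sources used here. Per the file headers, the deposited counts are reads per GENCODE M13 gene on the reverse strand, made by featureCounts 1.5.1, and 6 libraries joined 2 sequencing runs, per the labels. The deposited TPM values were made by the authors from the same counts and were recomputed here with a largest difference of 0.049. TPM was used for levels and sums only.

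Counts were tested with edgeR 4.0.16 (R 4.3.3): the robust quasi-likelihood test, scaling by TMM, filterByExpr defaults (minimum count 10, minimum total 15), all 14 libraries in 1 fit on the 4 groups without covariates, and Benjamini-Hochberg adjustment over 14512 genes with a threshold of 0.05. Every adjusted p comes from this fit unless another tool is named. "Fell", "rose" and "called" mean past that threshold. CPM are on TMM-scaled library sizes, fold changes are log2 with SE, and "median" is over the fitted values of the list. The interaction is the KO-minus-WT difference in p210 lines minus that in untransformed lines. The script was tested on simulated counts.

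Members and gene lists were chosen with earlier results of these data known. Of each step the text names the gene with the smallest adjusted p in a contrast, exceptions to the step's direction and genes that overlapped. Of other lists it names up to 3 called genes with the smallest adjusted p, and Orc4, Dguok, Samhd1, Rrm2b and Ccna2 were chosen after their values were seen. A gene of the list of other replication genes is not reported here. Alternatives were other scalings, no filter, DESeq2 1.42.0, limma-voom 3.58.1, the compared groups alone, replicate blocks, sample-name codes, sequencing runs as a term and leaving out each library. Sample names share a code and letter across states of a genotype, and p210 comparisons were paired by line on that reading. Deviations of such pairs from their group means correlated at 0.071, 0.102 and -0.033 in KO and 0.138, 0.105 and 0.118 in WT lines. Pairs across states with an unlike code or letter ran from -0.156 to 0.11 in KO and from -0.118 to 0.104 in WT lines. Pairs across genotypes reached 0.35. The KO pairs thus lay within the range of unlike pairs and the WT pairs just above it, and the pairing was not tested. What the codes stand for is not given. GENCODE M21 and RefSeq tables supplied symbols and promoter windows.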

Additional observations from a re-analysis of the deposited data

Results flagged for a closer look

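In groups of 4 libraries, 5 of 96 groups of CPM values held a library whose gap to its neighbour exceeded Dixon's critical share of the range, where chance gives about 1 in 20 groups. In the library labelled KO p210 replicate 2, Pola2 had 82.1 CPM, against 75.5 to 76.5 CPM in the other KO p210 libraries. Chaf1b had 47 CPM in KO p210 replicate 1 and 42.5 to 42.9 CPM in the others. Ccne1 had 28.5 CPM in untransformed WT replicate 4 and 23.8 to 24.2 CPM in the others of that group. Rpa2 had 112 CPM in untransformed WT replicate 3, below 121 to 122 CPM in the others. Rrm1 had 657 CPM in untransformed WT replicate 1, below 701 to 706 CPM in the others.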

How the results depend on the processing

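No count of called replication genes changed direction under the alternatives run (28 for the genotype comparisons and the interaction, 29 for the p210 comparisons), and the medians of the 47 fold changes ran from -0.55 to -0.34 (KO against WT, untransformed), -0.35 to -0.13 (KO against WT, p210), -0.84 to -0.54 (p210 against untransformed, WT), -0.53 to -0.30 (p210 against untransformed, KO) and 0.13 to 0.27 (interaction). The KO p210 count depended most on the setting, and the cause was not tested. Against 12 members in the main fit (645 of 14512 genes in all), 4 passed with no filter on low counts (466 of 27228). With limma-voom 6 passed (411 of 14512). With only the groups compared 0 passed (5 of 13390), and 4 with a replicate block by the titles' numbers (366 of 14512). In the first code alone 7 passed (655 of 14244). When the library labelled KO p210 replicate 2 and untransformed WT replicate 3 were both left out, 2 passed (275 of 14329). The second code alone left a single library in a group of each comparison, so its counts of calls are not given. DESeq2 called 1 interaction. Leaving out each library gave 10 to 34 calls for KO in untransformed lines, 2 to 16 for KO in p210 lines, 39 to 42 for p210 in WT lines, 21 to 33 for p210 in KO lines and 0 for the interaction. The replicate block by cell line called 25 genes with p210 in KO and 38 in WT lines, the block by shared code and letter 8 and 27 genes for KO in p210 and untransformed lines, and the block by titles' numbers 24 for KO in untransformed lines. Scaling by library size alone moved the median of all genes to -0.12 (KO, untransformed), -0.10 (KO, p210), -0.10 (p210, WT) and -0.12 (p210, KO), where TMM gave -0.02, 0.00, 0.02 and -0.01, and called 35, 16, 44 and 38 members, all lower. In the p210 WT comparison 20 of 40 calls held in all 29 alternatives and 36 in all but 1 or 2. Elsewhere 0 calls held in every alternative, a tally that includes the second code alone. With a single library in a group, that setting cannot show whether a call is stable. The most often called members held in 27 of 28 alternatives (KO, untransformed), 26 of 28 (KO, p210) and 28 of 29 (p210, KO). All but 1 or 2 kept 14 of 30 calls (KO, untransformed), 1 of 12 (KO, p210) and 22 of 31 (p210, KO). With sequencing runs as a term the counts were 25 (KO, untransformed), 8 (KO, p210), 36 (p210, WT) and 30 (p210, KO). For the 14 libraries, the labels do not tell cultures from derivations.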
